A study of Mus musculus with 9 samples.

Results

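The S100 genes encode small proteins of a calcium-binding family, and 9 of them were followed in tumours of the mouse melanoma line B16-F10: S100a1, S100a4, S100a6, S100a8, S100a9, S100a10, S100a11, S100a13 and S100b. They were chosen by name, as the members whose probe on an Agilent mouse array was well above background in the tumour channel on 3 or more of 9 arrays. Each member had 1 probe, and all 9 probes passed on 9 of 9 arrays, with no saturated spot. They are 9 of 26870 probes kept and 9 of 13124 genes with a symbol.

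The tumours were grown from 3 variants of B16-F10 made to differ in the level of L-histidine decarboxylase (HDC), the histamine-making enzyme. The capacity to make and secrete histamine was diminished in HDC-A, left unmodified in HDC-M and enhanced in HDC-S. Each group held 6 tumours, and the RNA of 2 randomly paired tumours was combined in each pool, which gave 3 pools and 3 arrays per group. Every Cy5-labelled pool was hybridised beside the same Cy3-labelled reference, RNA of HDC-M cells grown in culture, with no dye swap. The labels used here give no mouse strain, age, tumour site or number of clones behind a variant. Each group is 1 line variant, so the line and its histamine capacity cannot be told apart. A value below is the log2 ratio of tumour over reference, in which 1 is a doubling. RNA from a whole tumour mixes melanoma and host cells, and for every marker gene fewer cells of a type and less RNA per cell cannot be told apart.

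Most S100 proteins work as pairs that change shape when calcium binds and then grip partner proteins such as annexins and myosin. Some are also released and act outside the cell through receptors that include Ager (RAGE) and Tlr4. In melanoma, S100b is a tissue and serum marker, and S100a4 is known for its tie to invasion and metastasis. S100a8 and S100a9 form calprotectin, which neutrophils hold in bulk and which stressed or inflamed epidermis also makes.

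Between 58.0% and 69.7% of an array's spots were well above background in Cy5. Across probes, the lowest and highest r between arrays of a group were 0.899 and 0.950, and between arrays of different groups 0.862 and 0.922. Replicate 3 of every group was scanned on the second of 2 scan days. Hdc, the gene that was altered, was dim. Set against the negative controls' median, its signal was 1.24 to 1.92 times as high in Cy5 and 0.970 to 1.05 times in Cy3. Its log2 ratios overlapped among the 3 groups, and no difference passed (limma adjusted p from 0.463 to 0.864), so this probe gave no check of the labels. The melanocyte genes Tyr, Tyrp1, Dct, Pmel, Mitf, Slc45a2, Oca2, Gpr143 and Slc24a5 were well above background on all 9 arrays, and Mlana and Sox10 had no named probe. One S100 spot, S100a9 on HDC-S replicate 3, carried the scanner's outlier mark and was left out.

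Both members that differed between tumour groups, S100b and S100a11, are shown first with the 250 bases before their start sites, and S100a8 and S100a9 follow because their values moved together. The sequences are from RefSeq on GRCm38.p6, 5′ to 3′ in the direction of the gene. Capitals mark a match to 1 of 4 motifs, searched on both strands. The TATA box was written as TATAAA, the C/EBP motif as TTGCNNAA, the AP-1 motif as TGANTCA, and an E-box that MITF can bind as CATGTG. The last is the reverse complement of the letters printed in the S100a8 window.
S100b, chr10:76253586-76253835, plus strand: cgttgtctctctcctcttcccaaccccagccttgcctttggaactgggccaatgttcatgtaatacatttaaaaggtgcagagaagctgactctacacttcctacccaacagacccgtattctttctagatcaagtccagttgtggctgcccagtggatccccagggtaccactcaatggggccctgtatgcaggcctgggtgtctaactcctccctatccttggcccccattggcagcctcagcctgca
S100a11, chr3:93520246-93520495, plus strand: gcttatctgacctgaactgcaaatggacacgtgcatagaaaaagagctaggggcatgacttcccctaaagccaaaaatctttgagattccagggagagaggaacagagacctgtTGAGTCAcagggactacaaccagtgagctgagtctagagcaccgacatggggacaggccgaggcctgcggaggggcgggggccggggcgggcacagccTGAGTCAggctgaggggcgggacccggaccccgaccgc
S100a8, chr3:90668821-90669070, plus strand: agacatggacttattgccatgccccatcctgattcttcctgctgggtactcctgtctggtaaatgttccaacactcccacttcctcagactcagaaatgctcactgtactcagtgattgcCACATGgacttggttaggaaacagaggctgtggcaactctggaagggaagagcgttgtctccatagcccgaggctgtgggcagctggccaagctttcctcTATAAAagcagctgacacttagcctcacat
S100a9, chr3:90695722-90695971, minus strand: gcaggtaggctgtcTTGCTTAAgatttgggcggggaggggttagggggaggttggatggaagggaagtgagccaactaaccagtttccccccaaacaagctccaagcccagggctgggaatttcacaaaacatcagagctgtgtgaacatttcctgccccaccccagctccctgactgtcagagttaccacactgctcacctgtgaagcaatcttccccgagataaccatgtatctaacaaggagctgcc
The S100b window held none of the 4 motifs. The S100a11 window held TGANTCA at 136 and 38 bases before the start. The S100a8 window held TATAAA at 30 bases and CATGTG, on the opposite strand, at 130 bases. The S100a9 window held TTGCNNAA at 236 bases and no TATAAA. Among 32851 promoter windows of this length, TATAAA was present in 12.37%, TTGCNNAA in 9.564%, TGANTCA in 6.749% and CATGTG in 12.25%. These are letter matches, and no binding was measured. RefSeq's promoter table matched 8 of the 9 members, all but S100a10. S100a4 also held TATAAA, at 31 bases. S100a1 and S100a13 lie on opposite strands with start sites 105 bases apart, so their 250-base windows shared 104 bases. On chromosome 3, S100a8 lies next to S100a9, S100a1 next to S100a13 and S100a11 next to S100a10. S100b is alone among the members on chromosome 10.

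S100b, the S100 protein used as a melanoma marker, was higher in HDC-A tumours than in both other groups. Its log2 ratios were 0.92, 1.02 and 1.12 in HDC-A, 0.10, 0.30 and 0.38 in HDC-M, and 0.56, 0.30 and 0.07 in HDC-S. Every HDC-A pool lay above every pool of HDC-M and HDC-S, while HDC-M and HDC-S overlapped. The group means were 1.02 ± 0.10 (SD, n = 3) in HDC-A, 0.31 ± 0.24 (SD, n = 3) in HDC-S and 0.26 ± 0.14 (SD, n = 3) in HDC-M. The order of the levels was thus HDC-A, HDC-S, HDC-M, in which the last pair did not differ beyond their spread. S100b rose 1.69-fold in HDC-A against HDC-M, a log2 fold of 0.76 (SE 0.12, limma adjusted p = 0.0283). Against HDC-A it was lower in HDC-S by a log2 fold of -0.71 (SE 0.12, limma adjusted p = 0.0144). HDC-S and HDC-M differed by a log2 fold of 0.05, with a 95% interval of -0.23 to 0.33. The exact two-sided permutation test over the 10 splits of 3 against 3 pools gave p = 0.1 wherever groups did not overlap, which is the smallest p that this design allows.

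The call of S100b in HDC-A against HDC-M rested on single arrays and on the scaling. Without any one of the HDC-A or HDC-M arrays its limma adjusted p was 0.0504 to 0.110, at log2 folds of 0.68 to 0.81, and with median centring of the arrays in place of loess the log2 fold was 0.29 (adjusted p = 0.693). The call in HDC-S against HDC-A was lost without HDC-A replicate 3 (-0.66, limma adjusted p = 0.0514) and with median centring (-0.72, adjusted p = 1.00). On the first scan day alone, with 2 pools per group, the log2 folds of S100b were 0.76 in HDC-A against HDC-M (limma adjusted p = 0.152) and -0.54 in HDC-S against HDC-A (adjusted p = 0.134). With scan day as a block the limma adjusted p was 0.0480 and 0.0242.

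S100a11, which binds annexin A1 and is known from skin and migrating cells, was also highest in the HDC-A pools. Its log2 ratios were 0.36, 0.72 and 0.54 in HDC-A, 0.15, -0.03 and 0.07 in HDC-M, and 0.02, 0.07 and 0.07 in HDC-S. Its lowest HDC-A pool lay above the highest pool of both other groups. The means were 0.54 ± 0.18 (SD, n = 3) in HDC-A, 0.06 ± 0.09 (SD, n = 3) in HDC-M and 0.05 ± 0.03 (SD, n = 3) in HDC-S. After loess, HDC-M and HDC-S thus stood near the level of the cultured reference. S100a11 rose 1.39-fold in HDC-A against HDC-M (log2 fold 0.48, SE 0.09, limma adjusted p = 0.0411) and fell by 0.49 on the log2 scale in HDC-S against HDC-A (SE 0.09, limma adjusted p = 0.0171). HDC-S and HDC-M differed by -0.01 on the log2 scale, with a 95% interval of -0.21 to 0.19.

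The S100a11 calls depended on single arrays. In HDC-A against HDC-M it passed without HDC-A replicate 1 (limma adjusted p = 0.0327), and without any other single array the adjusted p was 0.0648 to 0.164. The S100a11 call in HDC-S against HDC-A was lost without HDC-A replicate 3 (limma adjusted p = 0.0537) and without HDC-S replicate 1, 2 or 3 (adjusted p = 0.0594, 0.0541 and 0.0603). With median centring in place of loess the log2 fold in HDC-A against HDC-M was 0.09 (limma adjusted p = 0.863). On the first scan day alone the log2 folds of S100a11 were 0.48 (limma adjusted p = 0.243) and -0.50 (adjusted p = 0.170) in these comparisons, and with scan day as a block the adjusted p was 0.0622 and 0.0293.

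S100b and S100a11 were the only members that passed between tumour groups. In HDC-A against HDC-M, 2 of the 9 members passed, both higher, where 1.44% of all probes passed. Another 2 members, S100a10 and S100a13, did not overlap between these groups, so 4 of 9 did not, where 20.9% of all probes did not overlap. In HDC-S against HDC-A the same 2 passed, both lower in HDC-S, where 5.26% of all probes passed, and no member besides these 2 was free of overlap, where 24.4% of all probes were. In HDC-S against HDC-M none of the 9 passed limma's test and none had an unadjusted p below 0.05, where 0.681% of all probes passed and 14.5% had such a p. The median log2 fold over the 9 members was 0.38 in HDC-A against HDC-M, -0.35 in HDC-S against HDC-A and -0.01 in HDC-S against HDC-M, against 0.006, 0.004 and 0.009 over all probes. Comparisons with HDC-A share its 3 pools, so their results are not independent.

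**Figure D1:**
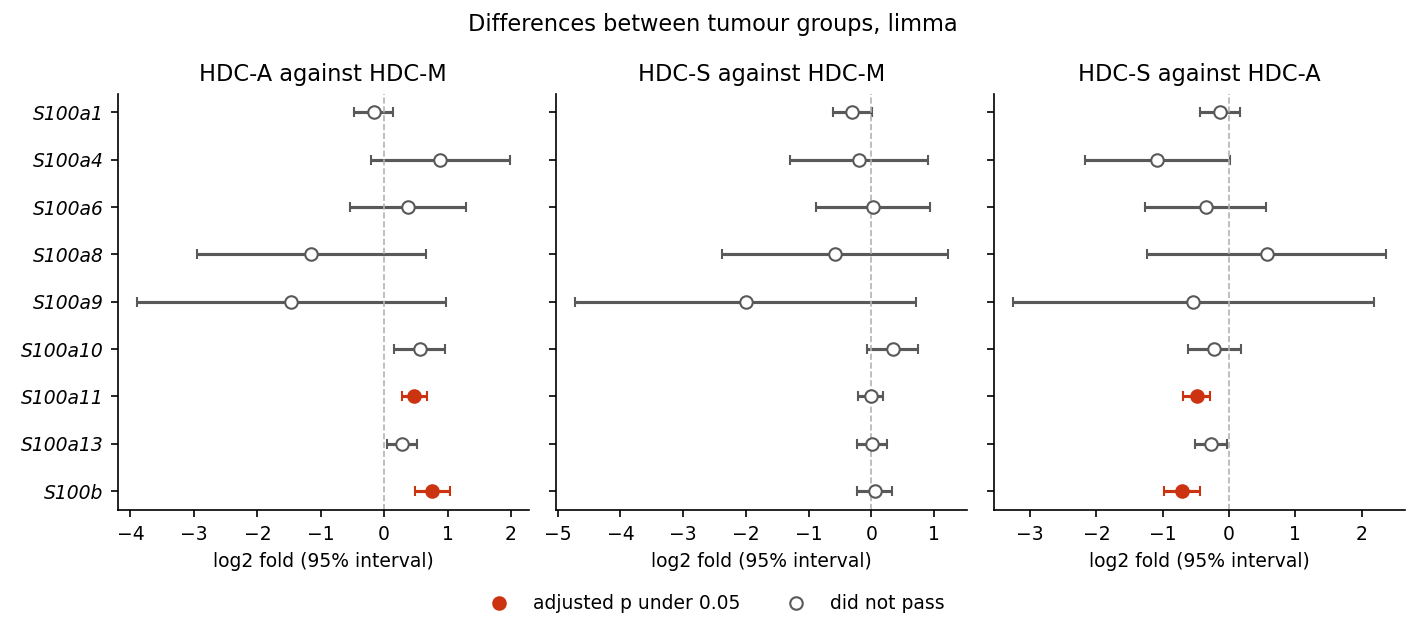
Log2 folds (x axis) of the 9 S100 members between the tumour groups, from limma; points are the folds, bars their 95% intervals, and filled red points passed an adjusted p of 0.05. S100b and S100a11 passed in both comparisons with HDC-A, at 0.76 and 0.48 against HDC-M, and the intervals of S100a8 and S100a9 are the widest of the 9.

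S100a10, the partner of annexin A2 at the cell membrane, was brighter in every tumour pool than in culture. Its log2 ratios were 0.95, 1.48 and 0.89 in HDC-A, 0.75, 0.59 and 0.29 in HDC-M, and 0.66, 1.11 and 0.88 in HDC-S. The lowest HDC-A pool lay just above the highest HDC-M pool, while HDC-S overlapped both. The log2 fold in HDC-A against HDC-M was 0.56 (SE 0.18, limma adjusted p = 0.164) and in HDC-S against HDC-M 0.34 (SE 0.18, limma adjusted p = 0.430), and neither passed. The order was HDC-A, HDC-S, HDC-M, and no neighbours differed beyond the test's threshold.

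S100a13, which takes part in the release of Fgf1, had log2 ratios of 0.28, 0.64 and 0.41 in HDC-A, 0.15, 0.21 and 0.12 in HDC-M, and 0.34, 0.17 and -0.01 in HDC-S. The HDC-A pools lay above the HDC-M pools and overlapped the HDC-S pools. The log2 fold was 0.28 in HDC-A against HDC-M (SE 0.11, limma adjusted p = 0.242) and -0.28 in HDC-S against HDC-A (SE 0.11, limma adjusted p = 0.189). S100a13 did not pass in either.

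S100a1, best known from heart and skeletal muscle, stayed near the level of the cultured reference after loess. Its log2 ratios were -0.18, -0.26 and 0.27 in HDC-A, 0.03, 0.14 and 0.15 in HDC-M, and -0.07, -0.13 and -0.38 in HDC-S. Every HDC-S pool was below every HDC-M pool, the only member without overlap in that comparison, where 22.3% of all probes did not overlap. The log2 fold of -0.30 (SE 0.14, limma adjusted p = 0.352) did not pass.

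**Figure D2:**
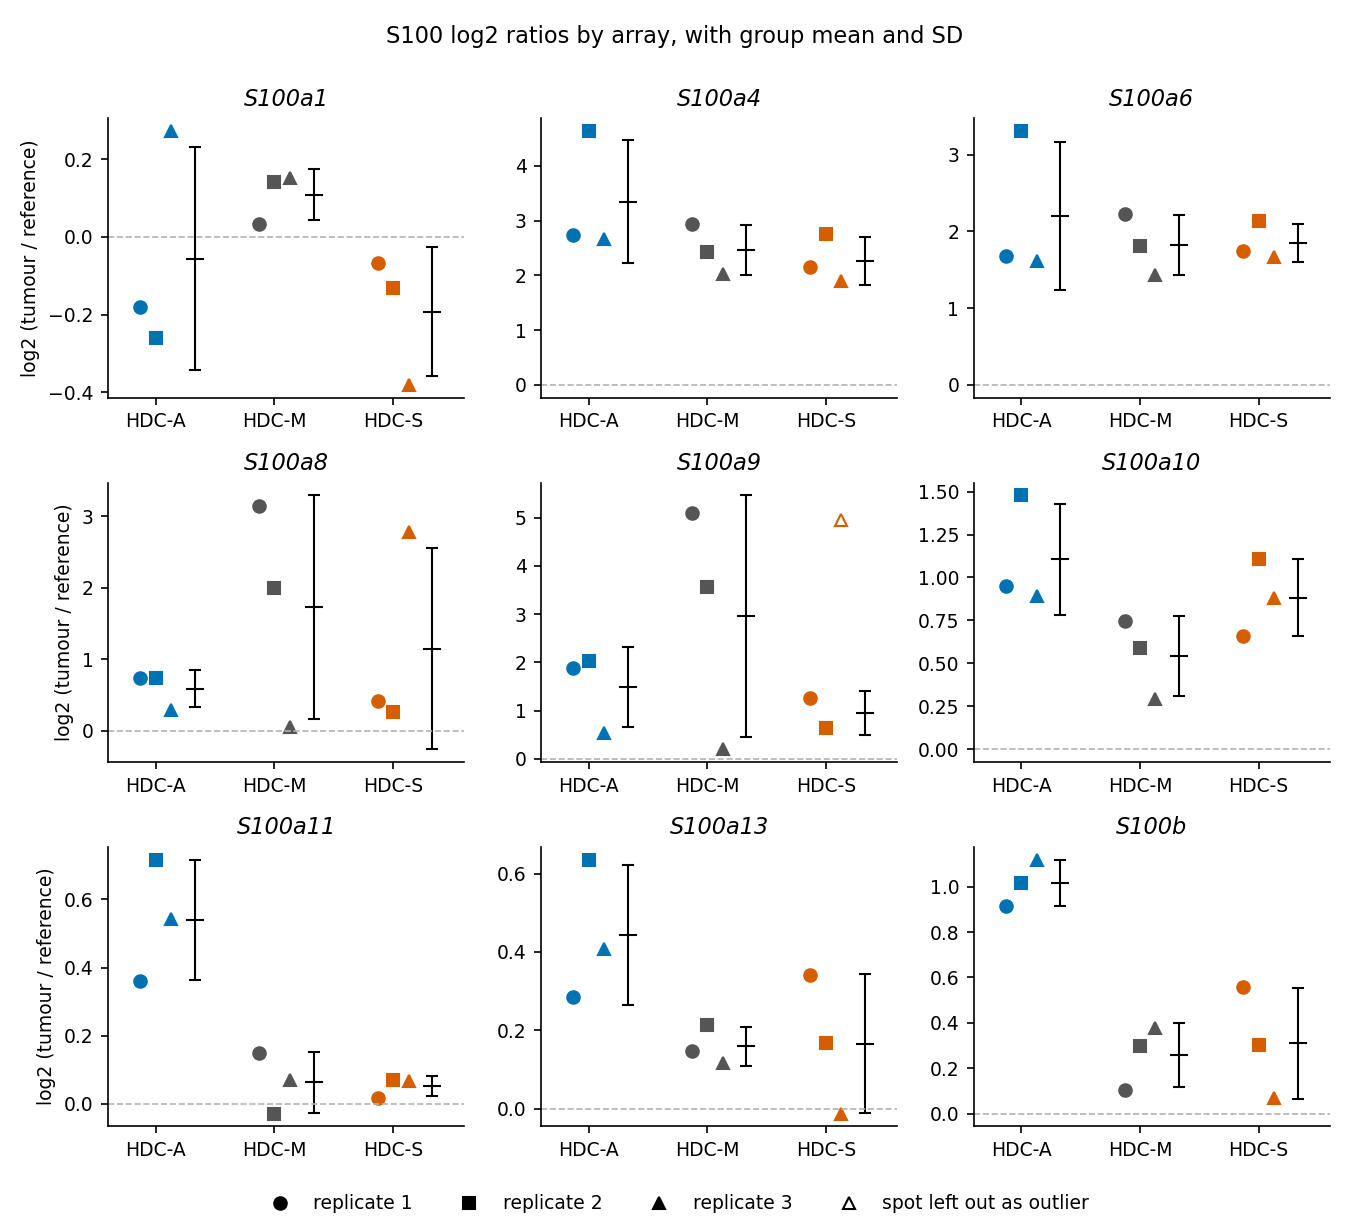
Log2 ratio of tumour over cultured reference (y axis, scaled separately per gene) for each S100 member on each array, by tumour group; symbols mark the replicate, the bar beside each group is the mean with its SD, and the open triangle is the S100a9 spot left out as an outlier. S100b and S100a11 are higher in all 3 HDC-A pools, HDC-A replicate 2 stands above the rest in S100a4 and S100a6, and S100a8 and S100a9 spread widely within HDC-M.

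S100a4 and S100a6, which bind non-muscle myosin and the Siah-interacting protein Cacybp respectively, were far brighter in tumours than in culture. S100a4 had log2 ratios of 2.74, 4.64 and 2.66 in HDC-A, 2.93, 2.42 and 2.03 in HDC-M, and 2.16, 2.75 and 1.89 in HDC-S. S100a6 had 1.69, 3.31 and 1.61 in HDC-A, 2.22, 1.81 and 1.44 in HDC-M, and 1.74, 2.14 and 1.67 in HDC-S. HDC-A replicate 2 was the highest pool for both genes and the others overlapped among all groups. In HDC-M tumours S100a4 was 5.51-fold (log2 2.46 ± 0.45, SD, n = 3) and S100a6 3.54-fold (log2 1.82 ± 0.39, SD, n = 3) above the reference. Limma's adjusted p for these was 0.000222 and 0.000467. Between tumour groups S100a4 gave log2 folds of 0.89 in HDC-A against HDC-M (SE 0.49, limma adjusted p = 0.437), -0.19 in HDC-S against HDC-M (adjusted p = 0.907) and -1.08 in HDC-S against HDC-A (adjusted p = 0.265). S100a6 gave 0.38 (SE 0.41), 0.02 (SE 0.41) and -0.35 (SE 0.41), with limma adjusted p from 0.723 to 0.989. The HDC-A fold of S100a4 rested on 1 pool: without HDC-A replicate 2 it was 0.24, and that of S100a6 turned to -0.18.

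Markers of other cells moved with these pools. All 9 fibroblast genes of the marker list (such as Dcn and Thy1) were measured, and the mean log2 ratio of the 8 with a value on all arrays (not Col1a1) was 2.40, 3.79 and 2.47 in HDC-A, 2.75, 2.63 and 2.10 in HDC-M, and 2.53, 3.11 and 1.92 in HDC-S. HDC-A replicate 2 was again the highest pool. Of 11 skeletal muscle genes 10 were measured, and the mean of the 9 with a value on all arrays (not Tnnc2) was also highest there, at 3.14, against 0.64 to 2.29 in the other pools. The folds of 8 of 9 fibroblast genes (median 0.48) and 10 of 10 muscle genes (median 0.98) were above 0 in HDC-A against HDC-M, and 9 of 9 (median -0.48) and 10 of 10 (median -1.05) were below 0 in HDC-S against HDC-A. None of these genes passed between tumour groups. By the direction of these folds HDC-A was on the same side of the other groups as in S100b and S100a11. HDC-A replicates 1 and 3 lay within the range of the other groups in both list means. In S100b and S100a11 every HDC-A pool lay above all pools of the other groups. The part of these cells in the S100b and S100a11 values was not tested. All 9 fibroblast genes and 7 of the 10 muscle genes passed as higher in HDC-M tumours than in culture, where 34.0% of all probes did. The part of these cells in the S100a4 and S100a6 values was not tested. The cultured HDC-M cells themselves gave S100a4 a Cy3 signal of 2.99 to 4.06 times the negative controls and S100a6 one of 5.12 to 5.85 times.

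By likeness over the 9 arrays, the genes nearest to S100a4 were Slc8b1 (r = 0.987), Notch3 (0.986), a receptor of pericytes and vascular smooth muscle, and Gja4 (0.981), an arterial connexin. Those nearest to S100a6 were Asb11 (r = 0.974), Naprt (0.967) and Mmrn2 (0.964), an endothelial matrix protein. HDC-A replicate 2 was the highest array for all 6 of these genes, which were picked for likeness to 2 genes highest there. S100a4 and S100a6 correlated with each other at r = 0.936. These correlations share the reference and the arrays, and 1 pool stands far from the rest in them.

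**Figure D3:**
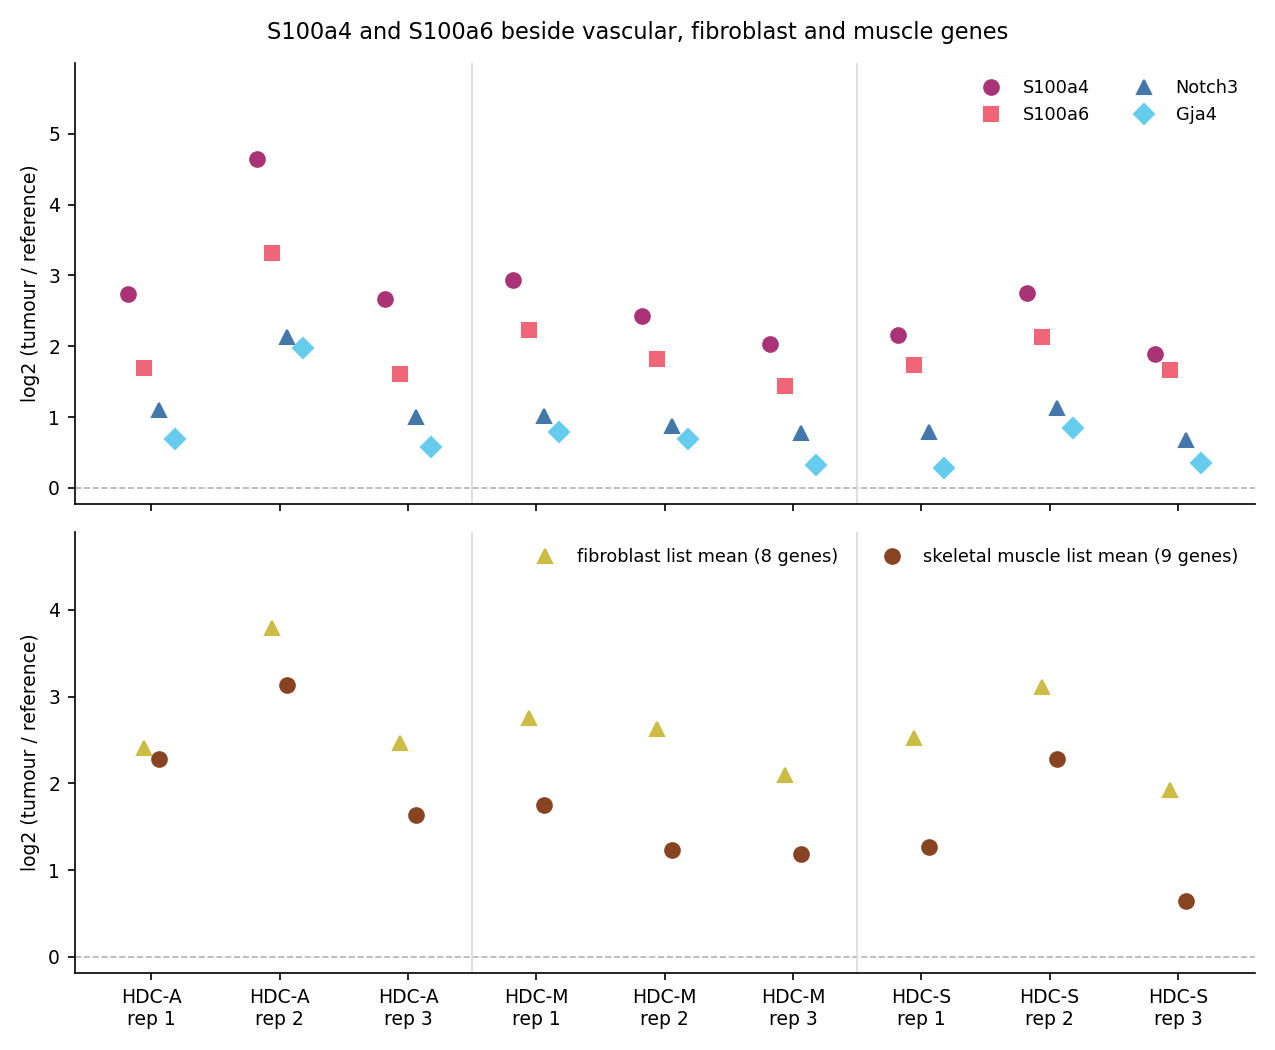
Log2 ratio of tumour over cultured reference (y axis) on each of the 9 arrays (x axis) for S100a4, S100a6, Notch3 and Gja4 (upper panel) and for the mean of the fibroblast and skeletal muscle marker lists (lower panel). HDC-A replicate 2 is the highest array in each series shown, with S100a4 at 4.64 and the fibroblast mean at 3.79.

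S100a8 and S100a9, the subunits of calprotectin, varied more within groups than any other member and did not separate the groups. S100a8 had log2 ratios of 0.73, 0.74 and 0.29 in HDC-A, 3.14, 2.00 and 0.05 in HDC-M, and 0.42, 0.26 and 2.78 in HDC-S. S100a9 had 1.89, 2.04 and 0.53 in HDC-A, 5.10, 3.57 and 0.20 in HDC-M, and 1.27 and 0.63 in the 2 HDC-S pools measured. HDC-M replicates 1 and 2 and HDC-S replicate 3 were high, HDC-M replicate 3 was the lowest array of all, and the groups overlapped. The outlier spot of S100a9 on HDC-S replicate 3 would have read 4.96. The within-group SD of S100a9 was 1.55 and of S100a8 1.22, at percentiles 99.98 and 99.93 of all probes, whose median was 0.098. S100a4 and S100a6 followed at percentiles 99.5 and 99.1, while S100b, at an SD of 0.17, was at percentile 85.5.

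No group comparison of these 2 genes passed. In HDC-S against HDC-M the log2 fold was -0.58 for S100a8 (95% interval -2.38 to 1.22, limma adjusted p = 0.806) and -2.004 for S100a9 (-4.73 to 0.72, limma adjusted p = 0.493). In HDC-A against HDC-M it was -1.15 (limma adjusted p = 0.557) and -1.47 (limma adjusted p = 0.579). In HDC-S against HDC-A it was 0.56 (limma adjusted p = 0.791) and -0.54 (limma adjusted p = 0.880), and the S100a9 value turned to 0.80 with the outlier spot kept. On the first scan day alone, which leaves out replicate 3 of every group, HDC-S against HDC-M gave -2.23 for S100a8 and -3.38 for S100a9 (limma adjusted p = 0.111 for each). The intervals are wide, so these data do not show that the groups had equal levels.

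In cultured HDC-M cells both genes were at background. In multiples of the negative controls' median, the Cy3 signal was 0.884 to 1.03 for S100a8 and 0.765 to 1.05 for S100a9, and Cy5 ranged from 1.14 to 10.7 and from 1.94 to 47.8. The ratios against the reference are therefore set by background in the lower channel. HDC-M tumours were above the reference by a log2 ratio of 1.73 for S100a8 (SE 0.57, limma adjusted p = 0.0254) and 2.95 for S100a9 (SE 0.75, limma adjusted p = 0.00938). Without HDC-M replicate 1 these were 1.03 (limma adjusted p = 0.197) and 1.88 (0.0639), without replicate 2 they were 1.60 (0.110) and 2.65 (0.0593), and without replicate 3 they were 2.57 (0.00358) and 4.33 (0.000123). The mean of the HDC-M ratios in the authors' deposited table was 3.94 for S100a8 and 4.41 for S100a9.

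S100a8 and S100a9 are known from granulocytes and from skin, and marker genes of both were read beside them. Of 22 granulocyte genes listed, 13 were measured, and their mean log2 ratio stayed between 0.02 and 0.22 on all 9 arrays. Among the defining granule genes, Elane, Camp, Ngp, Lcn2 and Retnlg were above background on 0 arrays, Ltf on 1 and the receptor Cxcr2 on 2, while Ly6g and Fcnb had no named probe. No granulocyte gene passed between tumour groups, and 5 of 13 passed as higher and 1 as lower in HDC-M tumours than in culture, where 34.0% and 23.9% of all probes did. Of 19 keratinocyte genes, 17 were measured, and the mean of the 15 with a value on all arrays (not Krt14 and Sfn) was 1.70, 1.85 and 0.87 in HDC-A, 2.74, 1.98 and 1.18 in HDC-M, and 0.09, 0.83 and 1.11 in HDC-S. HDC-M replicate 1 was highest in S100a8, S100a9 and the keratinocyte mean, and HDC-S replicate 3 was the highest HDC-S pool in S100a8 and that mean. HDC-A replicates 1 and 2, with keratinocyte means above that of HDC-S replicate 3, had S100a8 ratios of 0.73 and 0.74. All 17 keratinocyte folds were below 0 in HDC-S against HDC-M, with a median of -1.28 against 0.009 over all probes, and none passed (Krt10 at -2.35 and Lor at -2.73 had the smallest p, limma adjusted p = 0.113 and 0.128). The 14 measured macrophage and monocyte genes had means of 0.97 to 2.09, lowest in HDC-M replicate 3. Which cells made S100a8 and S100a9 was not tested.

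The genes nearest to S100a8 over the 9 arrays were of the epidermal envelope: Sprr2f (r = 0.993), Sprr2d (0.988) and Lce3f (0.963). In Cy5, S100a8 was 4.91 to 10.7 times the negative controls in HDC-M replicates 1 and 2 and HDC-S replicate 3. In the other pools it was 1.14 to 1.75 times, so those 3 pools stand far from the rest in these correlations. Sprr2d, a small proline-rich protein of the cornified layer, had log2 ratios of 0.65, 0.71 and 0.24 in HDC-A, 2.58, 1.91 and 0.05 in HDC-M, and 0.05, 0.07 and 2.71 in HDC-S. Its 3 highest pools were those of S100a8, the gene it was picked for resembling. The genes nearest to S100a9, over the 8 arrays with a value, were S100a8 (r = 0.983), the cytokine Il6 (0.983) and Sprr2d (0.974). The Il6 ratios spanned 0.01 to 0.48.

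**Figure D4:**
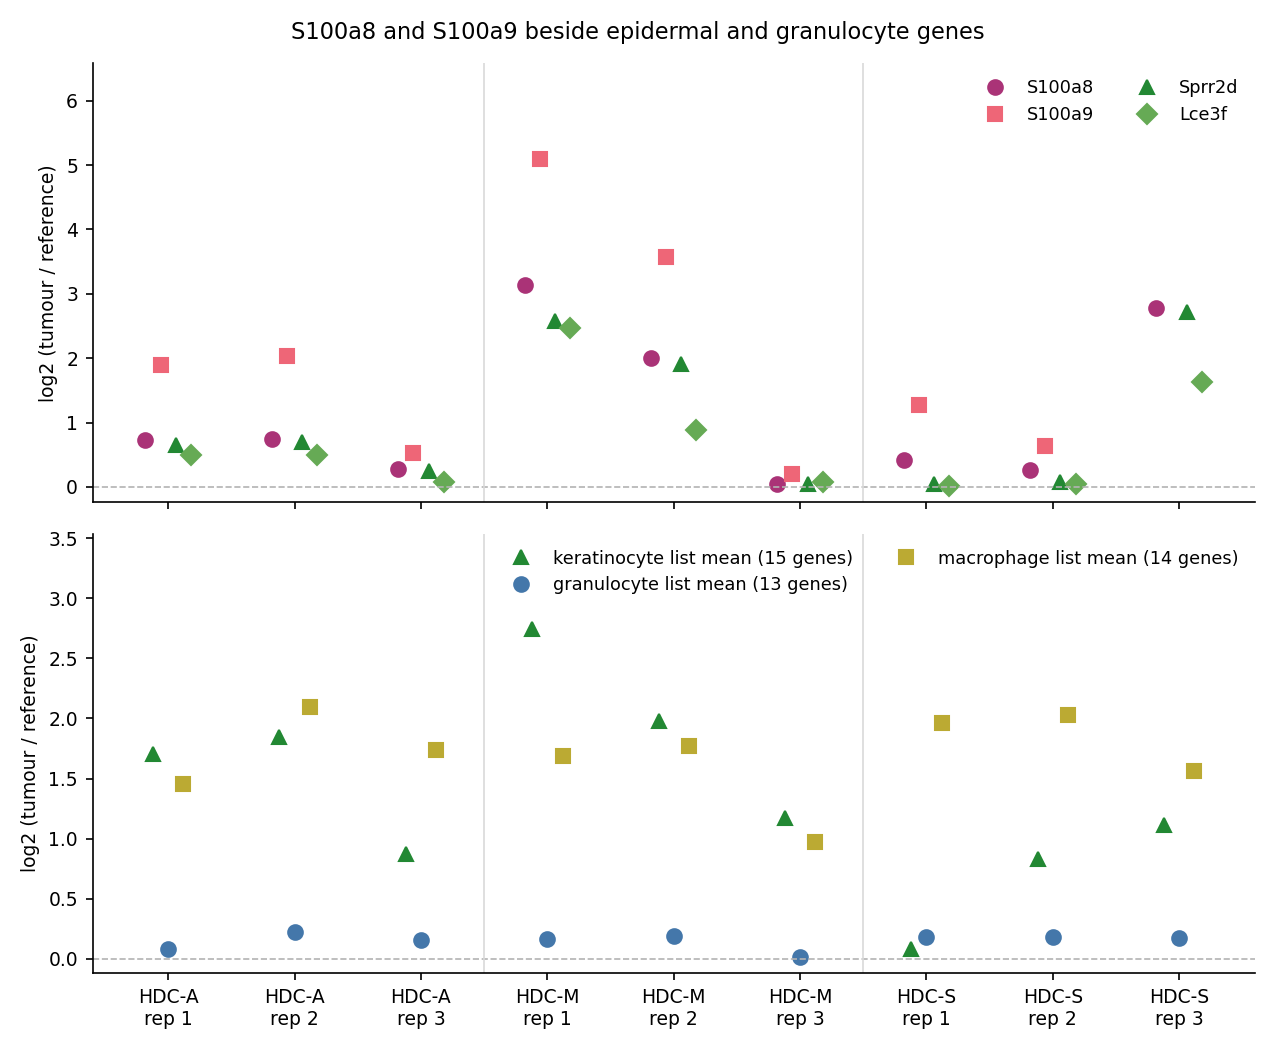
Log2 ratio of tumour over cultured reference (y axis) on each of the 9 arrays (x axis) for S100a8, S100a9, Sprr2d and Lce3f (upper panel; S100a9 on HDC-S replicate 3 is left out) and for the mean of the keratinocyte, granulocyte and macrophage marker lists (lower panel). The 4 genes are high together in HDC-M replicates 1 and 2 and, where measured, in HDC-S replicate 3, while the granulocyte mean stays between 0.02 and 0.22.

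Against the cultured reference, 6 of the 9 members passed as higher in HDC-M tumours (S100a4, S100a6, S100a8, S100a9, S100a10 and S100b), where 34.0% of all probes passed as higher. The median log2 ratio of the 9 was 0.54, against 0.05 over all probes. S100a10 was 1.46-fold (log2 0.54, SE 0.13, limma adjusted p = 0.00492) and S100b 1.20-fold (log2 0.26, SE 0.09, limma adjusted p = 0.0272) above the reference. S100a1, S100a11 and S100a13 lay at 0.11, 0.06 and 0.16 and did not pass. Over the 20 alternatives run, their highest ratios were 0.90, 0.83 and 0.92, and they passed in 1, 1 and 3. The 0.90 of S100a1 came with median centring (limma adjusted p = 0.00731). S100b no longer passed without HDC-M replicate 2 (0.24, limma adjusted p = 0.115) or replicate 3 (0.20, adjusted p = 0.137), and with median centring its ratio was 1.07. The reference is 1 RNA and was always in Cy3, so its own spread is not in the test, and the dye and the difference between tumour and culture cannot be told apart.

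The cultured melanoma cells gave a signal for the other 7 members. As multiples of the negative controls' median, Cy3 signals ranged from 2.99, for S100a4, to 47.2, for S100b, on any array. In S100b it was at least 28.0 times on every array, and in S100a10 at least 11.9 times. These multiples show how far each probe stood above background and do not rank the genes by amount of RNA. Nearly every negative control, 95.2% to 99.7% per array, carried the scanner's mark for well above background in Cy3, so that mark was not used for the reference.

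**Figure D5:**
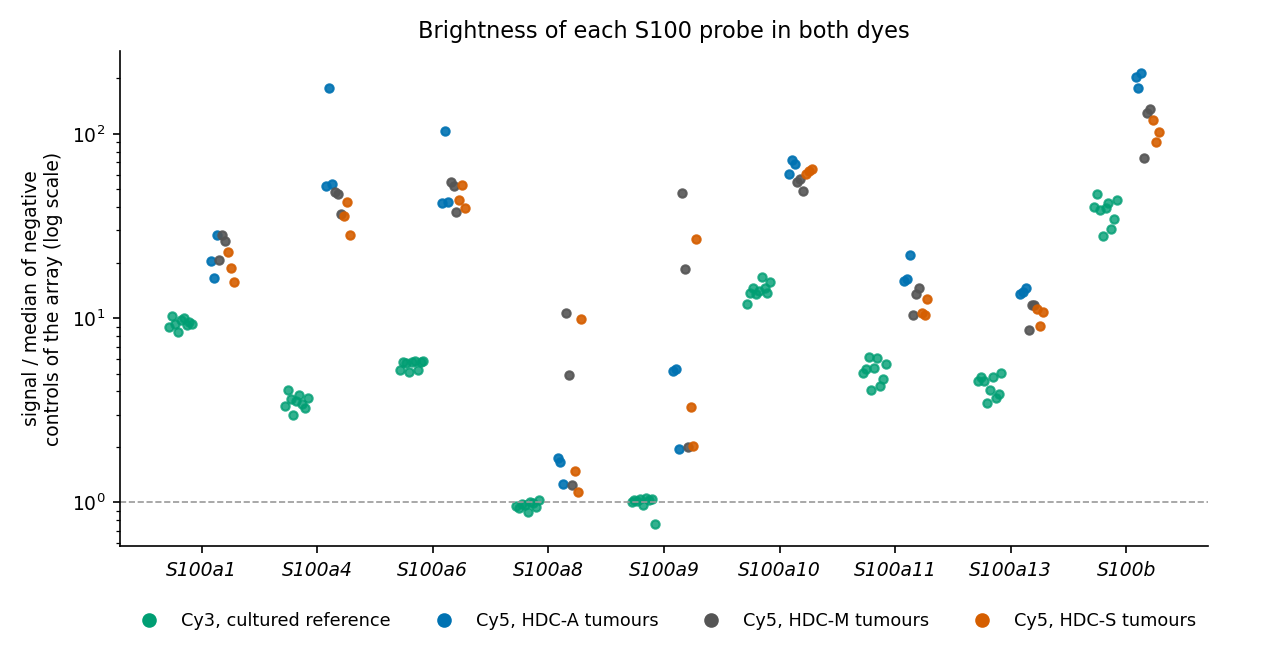
Signal of each S100 probe divided by the median of the negative controls of its array (y axis, log scale), for the cultured reference in Cy3 and the tumour pools in Cy5, 9 arrays each. The Cy3 points of S100a8 and S100a9 lie around 1, the level of the negative controls, while those of the other 7 members lie above it; the dyes and probes differ in brightness, so heights are to be read against the dashed line at 1 and not against one another.

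The genes most like S100b over the 9 arrays were Higd2a (r = 0.976), Gng11 (0.969) and Nomo1 (0.965), and those most like S100a11 were Nexn (0.976), Trim68 (0.972) and Pgrmc1 (0.962). In each of these 6 genes all HDC-A pools lay above all pools of both other groups, as in S100b and S100a11 themselves. They were picked for that likeness on the same arrays, so this adds no evidence of its own. S100a13 was most like Hcfc1r1 (0.982), Capg (0.978), an actin-capping protein, and Pwwp3b (0.956). S100a10 was most like Nfkbiz (0.946), Plekho1 (0.942) and Nr3c1 (0.938), the glucocorticoid receptor. S100a1 was most like Bnip1 (0.913), Eif4g3 (0.912) and Slc46a3 (0.900). Among pairs of members, S100a8 with S100a9 had r = 0.983 and S100a4 with S100a6 0.936. S100b had 0.845 with S100a13 and 0.839 with S100a11, and -0.62 with S100a8. All of these describe 9 arrays (8 with S100a9) that share the reference.

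S100b is also made by Schwann cells, melanocytes and adipocytes, and those lists were read beside it. The mean of 7 of 8 Schwann cell genes was 0.24 to 0.45 in HDC-A, 0.07 to 0.19 in HDC-M and 0.37 to 0.53 in HDC-S. Its HDC-A pools lay above its HDC-M pools, as in S100b, and overlapped its HDC-S pools, unlike in S100b. The mean of 6 of 7 adipocyte genes was 1.09 to 1.90 in HDC-A, 1.01 to 1.47 in HDC-M and 1.24 to 1.60 in HDC-S. None of these genes passed between tumour groups. Of 11 melanocyte genes 9 were measured, and the mean of the 8 with a value on all arrays (not Dct) was 0.28 to 0.30 in HDC-A, 0.47 to 0.63 in HDC-M and 0.10 to 0.32 in HDC-S. The HDC-A pools lay below the HDC-M pools in this mean, unlike in S100b, and overlapped the HDC-S pools. Of the 9, Oca2, a melanosomal transporter, was lower in HDC-S against HDC-M (-1.02, limma adjusted p = 0.0118) and against HDC-A (-0.62, limma adjusted p = 0.0171), and Tyr, the enzyme that starts melanin synthesis, was lower in HDC-S against HDC-A (-0.48, limma adjusted p = 0.0121). The part of any of these cells in the S100b values was not tested.

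The 10 further genes listed were other family members and S100pbp, which is not an S100 protein but binds one. Of these 10, 5 were measured, and none passed between tumour groups. S100a14, an epithelial S100 protein, had log2 ratios of 1.59, 1.65 and 0.53 in HDC-A, 2.79, 1.99 and 0.79 in HDC-M, and 0.03, 0.65 and 1.19 in HDC-S. Its HDC-M pools overlapped those of both other groups, and its log2 fold in HDC-S against HDC-M was -1.24 (SE 0.50, limma adjusted p = 0.300). S100a14 (1.86, limma adjusted p = 0.00157) and S100a16 (0.52, limma adjusted p = 0.00539) passed as higher in HDC-M tumours than in culture, while S100a3, S100a5 and S100pbp did not pass. S100a7a and S100g were above background on 0 arrays, and S100a2, S100a7l2 and S100z had no named probe. The median fold of the 5 was -0.08 in HDC-S against HDC-M, -0.07 in HDC-A against HDC-M and 0.004 in HDC-S against HDC-A.

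Among the receptors of S100 proteins, 6 of 7 were measured, and Ager, the best-known of them, was above background on only 2 arrays. Mcam, a melanoma adhesion molecule that binds S100a8 with S100a9, had log2 ratios of 0.75, 1.31 and 0.88 in HDC-A, 0.77, 0.92 and 0.72 in HDC-M, and 0.28, 0.26 and 0.26 in HDC-S. All HDC-S pools were below all others. It fell by 0.72 on the log2 scale in HDC-S against HDC-A (SE 0.13, limma adjusted p = 0.0151) and gave -0.54 in HDC-S against HDC-M (limma adjusted p = 0.1005). Bsg (basigin), another receptor of S100a9, gave 0.37 in HDC-S against HDC-M (limma adjusted p = 0.107). Tlr4 was below the reference on every array, at -0.41 to -0.86. Of the 6 receptors none passed in HDC-A against HDC-M or HDC-S against HDC-M, where 1.44% and 0.681% of all probes passed. In HDC-S against HDC-A, 1 of them, Mcam, passed, where 5.26% of all probes did, and the median fold of the 6 was -0.20. The medians against HDC-M were 0.11 in HDC-A and -0.09 in HDC-S.

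The partners listed for S100 proteins include secreted proteins (Plg, Plat and Plau) and a cell-surface receptor (Plaur) besides those inside cells. Among these 21, 20 were measured, all but Plg. Of these 20, 3 passed in HDC-S against HDC-A, 1 higher and 2 lower, where 5.26% of all probes passed. Anxa1, the annexin bound by S100a11, had log2 ratios of 1.34, 1.36 and 1.47 in HDC-A, 0.98, 0.64 and 0.49 in HDC-M, and 0.55, 0.91 and 0.48 in HDC-S. Its HDC-A pools were above all others, as were those of S100a11. Anxa1 fell by 0.75 on the log2 scale in HDC-S against HDC-A (SE 0.14, limma adjusted p = 0.0194) and gave 0.69 in HDC-A against HDC-M, just short of the threshold (limma adjusted p = 0.0505). Anxa5 also fell in HDC-S against HDC-A (-0.58, limma adjusted p = 0.0123), and Sugt1, a co-chaperone bound by S100a6, rose (0.25, limma adjusted p = 0.0339). Anxa2, the partner of S100a10, stood at 1.31 to 1.91 on the 8 arrays with a value and did not pass between groups. None of the 20 passed in HDC-A against HDC-M or in HDC-S against HDC-M, where 1.44% and 0.681% of all probes did. The median folds were 0.08 and 0.03, with -0.02 in HDC-S against HDC-A. Against the reference, 10 of the 20 passed as higher in HDC-M tumours and 8 as lower, where 34.0% and 23.9% of all probes did. Ahnak, a large scaffold that binds S100a10 with Anxa2, was highest among them at 2.34 (limma adjusted p = 0.000101), and Ctsd, a lysosomal protease, lowest at -1.03 over the 2 HDC-M pools with a value (limma adjusted p = 6.47e-06).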

How the data were processed

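RNA was measured on 9 2-colour Agilent arrays, 3 pools per group. The deposited intensity values, mean signal and median local background of each spot, come, per the file headers, from Agilent Feature Extraction 8.5.1.1, as were other deposited columns that mark spot types, outliers and spots well above background. The authors' value table holds log10 ratios of Cy5 over Cy3 and equals the scanner files' log10 ratio, so its scale and direction are known; its column medians lay between -0.0094 and 0. Any further step by the authors is not given in the sources used here.

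Signals were corrected by normexp (offset 50) and loess in limma 3.58.1 (R 4.3.3), without control and outlier spots, and averaged per probe. A probe was kept with Cy5 well above background on 3 of 9 arrays, which left 26870 of 41174. Probes were named from a RefSeq gene table, 22072 by accession, 693 by a synonym, 749 by a symbol in the description and 75 by gene name, and 17585 kept no symbol. The files name no genome build, so no probe coordinates are given.

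All 9 arrays were fitted in 1 limma model with 3 groups. P values were adjusted by Benjamini-Hochberg over all kept probes at a threshold of 0.05, and intervals are 95%. Each tested contrast was checked on simulated data. The pools are separate RNA mixes of separate tumours, and their number, 3 per group, limits the precision. Replicate numbers are not said to pair pools. Deviations of same-numbered pools correlated at 0.107, 0.548 and 0.131 between HDC-S and HDC-A, and at -0.189, -0.035 and -0.133 between HDC-S and HDC-M. Between HDC-A and HDC-M they correlated at -0.152, 0.152 and 0.032. All 3 were above 0 in HDC-S against HDC-A alone. There 0.107 and 0.131 are weak, so this does not show that the numbers pair pools. In that comparison S100b and S100a11 also passed with the replicate block, while in HDC-A against HDC-M no S100 probe passed with that block. The text names all 9 members, per member the 3 genes with the highest Pearson correlation over the arrays, and list genes that passed or had the smallest p; other list genes were chosen after their values were seen. The members and lists were chosen with earlier results of these data known. Where a gene had several probes, the brightest stood for it. A list's mean per array is over its genes with a value on all 9 arrays. Alternatives changed the background correction, normalization, filter, outlier spots, weights, channel, block and arrays.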

Additional observations from a re-analysis of the deposited data

How the results depend on the processing

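In HDC-S against HDC-M no S100 probe passed under any alternative run. In HDC-A against HDC-M, where 2 passed, 0 passed with median centring, scale normalization between arrays, the authors' deposited table, the first scan day alone or the replicate block, and 1 passed with the Cy5 channel alone, scan day as a block or only the compared groups in the fit; leaving out 1 array gave 0 to 1. In HDC-S against HDC-A, where 2 passed, 0 passed with median centring, scale normalization, the authors' deposited table or the first scan day alone, and leaving out 1 array gave 0 to 2. Against the reference, where 6 passed, leaving out 1 array gave 3 to 6, with 3 without HDC-M replicate 2 and 4 without HDC-M replicate 1. Other alternatives kept these counts within 1.5 times. S100b kept its direction in both comparisons with HDC-A under all 23 alternatives, and passed in 12 against HDC-M and 18 against HDC-S; S100a11 kept its direction in all 23 and passed in 7 and 15. The first scan day holds 2 arrays per group and so fewer samples; otherwise the cause was not tested. Median centring moved the median log2 fold of all probes by -0.117 in HDC-S against HDC-M, by -0.109 in HDC-A against HDC-M and to 0.274 against the reference.

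Folds that changed sign had not passed. In HDC-S against HDC-M these were, with median centring, S100a6 (-0.40), S100a10 (-0.12), S100a13 (-0.37) and S100b (-0.43); with scale normalization, S100a6 (-0.43), S100a13 (-0.030) and S100b (-0.062); with the Cy5 channel alone, S100a6 (-0.014), S100a13 (-0.011) and S100b (-0.046); S100a6 on the first scan day (-0.079) and with array weights (-0.054); and S100a11 with plain background subtraction (0.0017). In HDC-A against HDC-M they were S100a6 with median centring (-0.037) and scale normalization (-0.18) and S100a13 with median centring (-0.092). In HDC-S against HDC-A they were S100a9 with outlier spots kept (0.80) and, on the first scan day, S100a1 (0.12) and S100a8 (-0.40). Leaving out 1 array also turned signs; the ranges in HDC-S against HDC-M were -0.43 to 0.043 for S100a4, -0.17 to 0.22 for S100a6, -1.42 to 0.12 for S100a8, -0.058 to 0.032 for S100a11, -0.083 to 0.095 for S100a13 and -0.074 to 0.17 for S100b, in HDC-A against HDC-M -0.18 to 0.67 for S100a6, and in HDC-S against HDC-A -0.24 to 0.027 for S100a1, -0.65 to 0.20 for S100a6 and -0.25 to 1.01 for S100a8. A slide block was not run, since each slide held 1 array. S100a8 and S100a9 were at background in Cy3, which limits their ratios against the reference.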

Other observations

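Krt6a, a keratin of stressed and wounded epidermis, was picked from the keratinocyte list after its values were seen. Its log2 ratios were 1.08, 1.08 and 0.17 in HDC-A, 3.02, 1.76 and 0.05 in HDC-M, and -0.14, -0.08 and 1.19 in HDC-S. Its highest pools within HDC-M and HDC-S, replicate 1 and replicate 3, were those of S100a8. Krt10, a keratin of the differentiated epidermis, was instead at 3.27 in HDC-M replicate 3, where S100a8 was at 0.05, and at 1.13 in HDC-S replicate 3, where S100a8 was at 2.78.

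A further probe, A_52_P45937, has a cDNA description that names the S100a4 product but carries no symbol, and so lies outside the 9. Its log2 ratios were -0.11 to 0.17 on the 9 arrays, at a Cy5 signal of 1.32 to 1.63 and a Cy3 signal of 1.08 to 1.14 times the negative controls, while the S100a4 probe stood at 1.89 to 4.64. No group difference of this probe passed (limma adjusted p from 0.886 to 0.948).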
